A study of Homo sapiens with 66 samples.

Results

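The 7 genes described here encode the inhibitors of cyclin-dependent kinases (CDKs), measured in leukemia cell lines before and after etoposide. They were chosen by gene symbol from 57992 annotated genes, as the members of 1 gene family. CDKN1A, CDKN1B and CDKN1C form the CIP/KIP branch, and CDKN2A, CDKN2B, CDKN2C and CDKN2D form the INK4 branch. RNA was sequenced from 11 lines of acute myeloid leukemia (AML), namely THP-1, OCI-AML3, OCI-AML2, MV-4-11, MOLM-13, MONO-MAC-6, NOMO-1, NB-4, KASUMI-1, HL-60 and F-36P. Each was left untreated or given etoposide for 24 hours, at the IC50 of that line, the concentration set from its own viability curve. This gave 22 groups of 3 libraries, 66 in total. Etoposide is a drug that traps topoisomerase II on cut DNA, and its concentration thus differed between lines. Each line is a single established culture, cells of 3 wells were pooled for each RNA sample, and the series design calls the replicates biological. The study discarded the etoposide libraries of OCI-AML2, so that line is given apart and counts over lines cover the other 10.

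A cell enters and passes through the division cycle when cyclins switch on CDKs. CIP/KIP proteins bind complexes of cyclins with CDKs, mainly those of CDK2, whereas INK4 proteins bind CDK4 and CDK6 and keep D-type cyclins from activating them, which leaves the retinoblastoma protein in its growth-restraining form. CDKN1A (p21) is known for its rise after DNA damage, and CDKN2A and CDKN2B lie side by side at a locus that is often deleted in leukemias and other cancers.

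The libraries held between 17997404 and 24101670 reads on genes, with a median of 20241014. Levels are given in CPM, the reads of a gene per 1000000 reads of its library after scaling. A gene with 0 reads in the 3 untreated libraries of a line may still have had a level of 0.0462 to 0.0535 CPM, depending on the line, from counting error alone. Of 7 myeloid markers, SPI1, CD33, LYZ and PTPRC reached 1 CPM in all 11 lines and CEBPA, MPO and ANPEP in 10 each, with 5 of the 7 in F-36P and 6 in MOLM-13. F-36P stood apart, since the 3 erythroid markers GATA1, KLF1 and HBG1 summed to 499.6 CPM there against 0.0505 to 14.4 CPM in the other lines, and whether this bears on its values below was not tested. In bulk RNA, fewer cells of a type and less RNA per cell cannot be told apart.

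On GRCh38, CDKN1A lies on the plus strand at chr6:36676460-36687337, CDKN1B on the plus strand at chr12:12685498-12722369 and CDKN1C on the minus strand at chr11:2883213-2885775. CDKN2A (chr9:21967752-21995301) and CDKN2B (chr9:22002903-22009305) are neighbours on the minus strand, where no other gene overlaps them, while the antisense RNA gene CDKN2B-AS1 overlaps both from the plus strand. CDKN2C lies at chr1:50960745-50974634 on the plus strand and CDKN2D at chr19:10566460-10569059 on the minus strand. The counts were taken as kept by strand, inferred from reads on genes nested in opposite-strand exons, in which case CDKN2B-AS1 and its antisense partners were counted separately. That inference does not settle the matter, since the nested genes were found with a later annotation than the one used for counting. CDKN2A and CDKN2B share no exon but are closely similar in part of their coding sequence. The counter used only reads with 1 place in the genome, so the levels of both may be too low. The count of CDKN2A also joins the transcripts of 2 proteins, p16INK4a and ARF, which could not be separated.

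The sequences before the starts of the 4 genes that rose past the limits given below in more than 1 line, or at the shared locus, are shown because their letters differ in how many GC boxes they hold. Each is the 250 bases before a RefSeq transcription start (GRCh38.p14), read 5′ to 3′ on the strand of the gene, with the GC box GGGCGG (either strand) in capitals. They span chr6:36678464-36678713 for CDKN1A, chr9:21995325-21995574 and chr9:21974858-21975107 for the outer (ARF) and inner (p16INK4a) starts of CDKN2A, chr9:22009306-22009555 for CDKN2B and chr19:10568980-10569229 for CDKN2D.
CDKN1A: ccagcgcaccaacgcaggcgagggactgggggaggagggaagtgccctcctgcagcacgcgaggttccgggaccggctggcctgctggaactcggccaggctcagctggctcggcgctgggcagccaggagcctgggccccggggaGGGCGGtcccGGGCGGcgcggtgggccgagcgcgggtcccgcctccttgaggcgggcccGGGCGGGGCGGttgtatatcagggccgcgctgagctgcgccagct
CDKN2A outer start: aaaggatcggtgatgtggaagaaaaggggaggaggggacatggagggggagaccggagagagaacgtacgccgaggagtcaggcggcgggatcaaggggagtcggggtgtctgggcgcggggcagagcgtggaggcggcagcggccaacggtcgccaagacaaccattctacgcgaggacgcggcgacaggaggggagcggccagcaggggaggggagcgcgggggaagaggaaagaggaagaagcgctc
CDKN2A inner start: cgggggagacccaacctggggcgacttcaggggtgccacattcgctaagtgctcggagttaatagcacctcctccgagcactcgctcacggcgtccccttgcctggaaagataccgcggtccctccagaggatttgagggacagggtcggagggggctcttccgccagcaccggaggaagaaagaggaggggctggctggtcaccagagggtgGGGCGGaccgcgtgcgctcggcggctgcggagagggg
CDKN2B: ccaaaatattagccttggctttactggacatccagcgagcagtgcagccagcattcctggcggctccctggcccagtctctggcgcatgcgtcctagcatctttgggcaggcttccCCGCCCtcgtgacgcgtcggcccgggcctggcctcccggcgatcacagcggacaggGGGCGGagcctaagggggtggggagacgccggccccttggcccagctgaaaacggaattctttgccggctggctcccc
CDKN2D: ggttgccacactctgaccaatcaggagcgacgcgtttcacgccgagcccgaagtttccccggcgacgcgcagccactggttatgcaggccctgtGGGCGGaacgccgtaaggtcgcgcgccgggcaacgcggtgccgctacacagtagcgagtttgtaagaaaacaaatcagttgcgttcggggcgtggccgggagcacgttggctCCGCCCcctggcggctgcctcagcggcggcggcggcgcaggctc
In these stretches CDKN1A held 4 GC boxes, 2 of them overlapping, and CDKN2B and CDKN2D held 2 each. The inner start of CDKN2A held 1 and its outer start held 0. Among the members not printed, such stretches held 1 GC box for CDKN1B and 0, 5 and 1 at the 3 starts of CDKN2C. Neither of these genes passed the limits given below in any of the 10 lines, nor did 65.1% of the genes tested in all of them. Whether GC boxes bear on the changes was not tested. RefSeq windows of 300 bases, with 50 bases after the start, were matched for 6 of the 7 members. Within such windows a GC box stood in 45% of all 35116 promoters, the TATA box TATAAA in 11.5% and the E-box CACGTG in 7.26%, both strands searched. None of the windows of these 6 members held TATAAA, and the E-box stood only at 2 of the 3 starts of CDKN2C. These matches describe letters and not bound factors.

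The members differed in basal level between untreated lines far beyond the spread of the replicates. In a fit of the 33 untreated libraries, 6 of the 6 members with enough reads differed between lines, and so did 99.4% of all genes tested, so the order of the lines carries more than the call. CDKN1A spanned the widest range of the members with reads in every line. Its mean was 246 ± 15.9 CPM (SD, n = 3) in MOLM-13, 135 ± 1.16 in MV-4-11, 70.9 ± 6.69 in THP-1 and 45.7 ± 1.89 in OCI-AML2. The middle of the order held OCI-AML3 (36.7 ± 3.60), MONO-MAC-6 (30.4 ± 2.88) and NOMO-1 (22.7 ± 2.32). F-36P (7.91 ± 1.31), KASUMI-1 (5.01 ± 1.12), NB-4 (2.67 ± 1.38) and HL-60 (0.214 ± 0.0483) formed the lower end. HL-60 gave only 5, 5 and 3 reads on CDKN1A in its untreated libraries. Of the 10 steps between neighbours in this order, only OCI-AML3 and MONO-MAC-6 did not differ (edgeR quasi-likelihood test, adjusted p = 0.0792), and 54 of 55 pairs of lines differed, against 66.8% of pairs over all genes.

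CDKN1B (p27), which holds CDK2 in check in resting cells, was the most even of the members with reads in every library. Its highest basal level was 137 ± 3.38 CPM in KASUMI-1, followed by 106 ± 6.18 in MV-4-11 and 84.1 ± 2.58 in MOLM-13. OCI-AML3, HL-60, F-36P, OCI-AML2, NB-4, THP-1 and MONO-MAC-6 lay between 74.5 and 45.2 CPM, and NOMO-1 was lowest with 17.3, 21.1 and 16.4 CPM in its 3 libraries. MONO-MAC-6 exceeded NOMO-1 by 1.31 on the log2 scale (adjusted p = 8.43e-14), whereas 6 of the 10 neighbouring steps did not differ. CDKN1C (p57), best known as an imprinted growth regulator of the embryo, was nearly silent. It had 0 reads in the 3 untreated libraries of 7 lines, and its highest mean was 0.419 ± 0.136 CPM in NOMO-1, from 10, 6 and 11 reads.

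CDKN2A was the most divided member. MONO-MAC-6 had 152, 193 and 182 CPM, MV-4-11 had 58.0, 49.2 and 54.1 CPM and OCI-AML2 had 36.9, 41.8 and 43.4 CPM. Means were 12.1 ± 1.19 CPM in HL-60, 5.05 ± 0.202 in KASUMI-1 and 2.31 ± 0.398 in OCI-AML3, and each of the 6 steps from MONO-MAC-6 down to MOLM-13 passed the test. MOLM-13 had 4 reads, all in 1 library, and F-36P, NB-4, NOMO-1 and THP-1 had 0 reads in every library, treated or not. CDKN2B, whose protein (p15INK4b) is the INK4 inhibitor raised by TGF-beta, was low wherever it was found. It reached 6.13, 5.82 and 5.99 CPM in MONO-MAC-6, with means of 0.938 in HL-60, 0.918 in MV-4-11, 0.881 in OCI-AML3 and 0.528 in OCI-AML2, among which no neighbours differed. CDKN2B had 0 untreated reads in the 4 lines without CDKN2A reads and also in KASUMI-1 and MOLM-13.

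CDKN2C (p18INK4c) was abundant in every line and ran from 330.3 ± 22.0 CPM in THP-1, 254 ± 10.6 in MOLM-13, 211 ± 9.58 in MONO-MAC-6 and 191 ± 4.49 in NOMO-1 down to 28.0 ± 3.46 in NB-4 and 22.3 ± 1.06 in OCI-AML3. Of its 10 neighbouring steps 8 passed the test, the exceptions being MONO-MAC-6 with NOMO-1 (adjusted p = 0.0916) and HL-60 with OCI-AML2 (adjusted p = 0.343). CDKN2D (p19INK4d) was lower, from 26.6 ± 1.37 CPM in MV-4-11 to 2.23 ± 0.547 in KASUMI-1, which lay below OCI-AML3 (5.93 ± 0.690) by 1.42 on the log2 scale (adjusted p = 3.38e-10). Only 4 of its 10 neighbouring steps passed. Per kilobase of the main annotated transcript (MANE Select), CDKN2C led the family in 10 of 11 lines, with 332 CPM per kilobase in THP-1, and CDKN1B led in OCI-AML3 with 30.9. Per kilobase of all exons merged, the first place passed to CDKN1A in MV-4-11 and OCI-AML3 and to CDKN2D in NB-4, so the order within those lines rests on the length used.

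**Figure D1:**
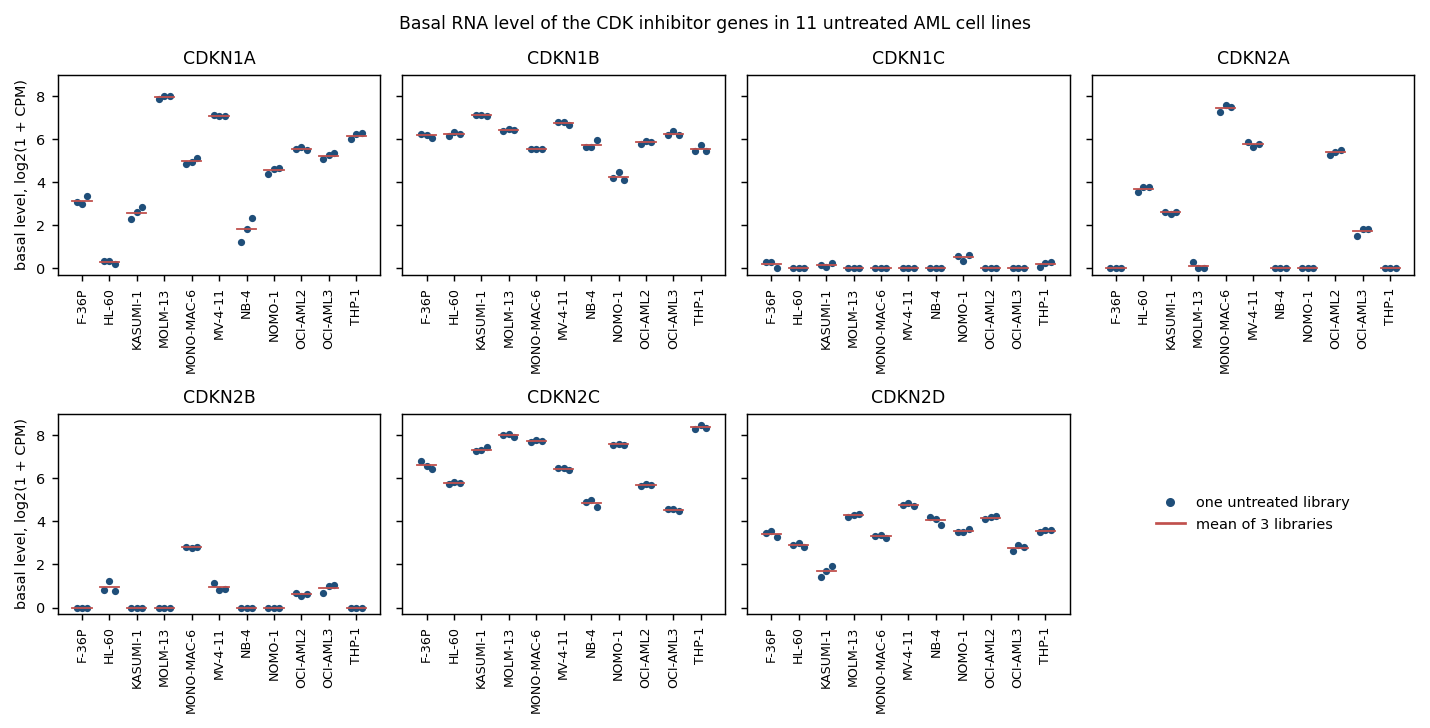
Basal level of the 7 members, as log2(1 + CPM), in the 33 untreated libraries of 11 lines, with 1 point per library and a bar at the mean of 3. CDKN1A and CDKN2A spread over most of the axis, CDKN1B is the most even, and CDKN2A and CDKN2B lie at 0 in F-36P, NB-4, NOMO-1 and THP-1.

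The lines without CDKN2A and CDKN2B reads also lacked reads on genes beside them. MTAP, which encodes an enzyme of methionine salvage and lies next to CDKN2A, had 0 untreated reads in F-36P, NB-4, NOMO-1 and THP-1 and 1869 to 6987 in the other 7 lines. KLHL9, farther out, which encodes a ubiquitin ligase adaptor, had 0 untreated reads in NOMO-1 and THP-1 but 1888 in F-36P and 3702 in NB-4. FOCAD and HACD4, still farther out, had 0 reads only in NOMO-1, where FOCAD otherwise had 2154 reads or more in each line. MLLT3, at 1.51 Mb from CDKN2A, had 840 reads in NOMO-1 and 116 or more in every line. Between MTAP and KLHL9 the pseudogene KHSRPP1 had 2 to 9 untreated reads in every line, and RN7SL151P had 1 in NOMO-1. Apart from these, the stretch of genes without untreated reads ran from CDKN2B to MTAP in F-36P and NB-4. It ran to KLHL9 in THP-1 and to FOCAD in NOMO-1, where MTAP had 1 read after etoposide.

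KASUMI-1 and MOLM-13 showed other patterns. KASUMI-1 had 1869 reads on MTAP and 287 on CDKN2A but 0 on CDKN2B and CDKN2B-AS1, and after etoposide it had 2 on CDKN2B and 20 on CDKN2B-AS1. MOLM-13 had 2250 on MTAP, 4 on CDKN2A, 25 on CDKN2B-AS1 and 0 on CDKN2B, and after etoposide 0 on CDKN2A and 27 on CDKN2B-AS1. In all, 5 of the 54 genes of the window with a read in any library had untreated reads in NOMO-1, against 9 in F-36P and THP-1, 14 in NB-4 and 12 to 22 in the remaining lines. DNA was not measured, and in RNA counts a deleted gene and a silent gene cannot be told apart.

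Etoposide raised members of the family and lowered none past both limits of a call, a false discovery rate (FDR) under 0.05 and more than a 2-fold change. Over the 10 lines the 7 members make 70 pairs of member and line, of which 50 had enough reads to be tested, and 18 of these were called induced and 0 repressed. Over all genes 11.1% of tested pairs were called induced and 3.96% repressed. CDKN1A gave 10 of the 18 calls, so 8 of the 40 pairs of the other members were induced, and those that passed the filter on low counts are not all members. CDKN1A in HL-60 and CDKN1C in NOMO-1, both among the 18, passed that filter only through their etoposide libraries, where they were high. Without F-36P the calls numbered 16. By FDR alone 34 of the 50 pairs passed, against 52.1% of pairs over all genes. Where untreated and etoposide libraries are said below to overlap or not, this only describes the libraries. The share of all genes without such overlap was not computed, so a lack of overlap does not set a member apart.

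CDKN1A rose in 10 of 10 lines, by 1.86 to 5.46 on the log2 scale with a median of 3.04. It was 1 of 17 genes (0.161% of the 10588 tested in every line) called induced in all 10. In HL-60 it passed the filter on low counts only through its etoposide libraries. Its place among the 10588, here and for the mean over lines below, thus rests on them. The rise was steepest in OCI-AML3, where untreated libraries had 33.2, 36.6 and 41.0 CPM and etoposide libraries 1501, 1553 and 1828 CPM. That is a log2 fold change of 5.46 ± 0.12 (SE; adjusted p = 1.92e-07, edgeR quasi-likelihood test with Benjamini-Hochberg adjustment), and it exceeded the change in F-36P, the next line (adjusted p = 6.76e-06). In that line, 7.54, 7.35 and 10.3 CPM became 132, 136 and 176 CPM, a log2 fold change of 4.14 ± 0.19.

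HL-60 reached the same log2 fold change of 4.14 ± 0.36 from the lowest base, with 0.261, 0.258 and 0.170 CPM before and 3.80, 3.05 and 5.62 CPM after etoposide. That line therefore held little CDKN1A RNA even after its rise. NB-4 went from 1.42, 2.67 and 4.35 CPM to 31.0, 39.5 and 44.3 CPM (log2 fold change 3.78 ± 0.24). KASUMI-1, also low at the base, had 3.86, 5.09 and 6.02 CPM before and 27.1, 32.3 and 29.2 CPM after (2.57 ± 0.15). Untreated and etoposide libraries did not overlap in any of these lines.

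In NOMO-1 the gene rose from 22.4, 26.4 and 27.2 CPM to 212, 234 and 179 CPM (log2 fold change 3.04 ± 0.12). In MONO-MAC-6 it rose from 29.1, 30.9 and 34.9 CPM to 229.6, 229 and 231 CPM (2.86 ± 0.06). In THP-1 it rose from 65.0, 75.8 and 77.5 CPM to 345, 447 and 373 CPM (2.42 ± 0.13). Every etoposide library of these 3 lines lay above every untreated library of the same line.

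The lines with the highest base were MOLM-13 and MV-4-11. MOLM-13 had 219, 248 and 242 CPM untreated and 1655, 2059.7 and 2103 CPM with etoposide (log2 fold change 3.04 ± 0.10). MV-4-11 had 145, 144 and 145 CPM untreated and 511, 544 and 518 CPM with etoposide, the smallest of the 10 log2 fold changes at 1.86 ± 0.05. It lay below that of THP-1, the line next to it (adjusted p = 0.0414). In OCI-AML2, whose etoposide libraries the study discarded, 44.7, 48.0 and 44.6 CPM became 79.9, 73.1 and 75.0 CPM. The groups did not overlap there and the log2 fold change of 0.73 ± 0.06 passed the FDR limit (adjusted p = 0.000289) but not the fold limit. In that line 0% of all 13604 genes were called, and 3.35% had an unadjusted p under 0.05.

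The change of CDKN1A differed between lines (interaction of line and treatment over 60 libraries, adjusted p = 2.91e-19), as did that of 74.5% of all genes. Of the 9 steps between neighbours in the order of the CDKN1A change, 3 passed and 6 did not. The mean log2 fold change over the 10 lines was 3.33 ± 1.06 (SD), with 10 of 10 lines positive. In an exact two-sided sign-flip permutation test over the 10 lines p was 0.00195, the smallest that all possible flips can give, and the adjusted p was 0.00991 (43.3% of genes passed), whereas with the median of 3.04 in place of the mean the adjusted p was 0.0696. On a scale shared by the 60 libraries the line means of CDKN1A ran from 0.219 to 249.9 CPM before and from 4.05 to 2140.0 CPM after etoposide, a ratio of 1139.6 and then 528 between the highest and the lowest. The SD of the line means on the log2 scale was 3.01 before and 2.75 after.

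**Figure D2:**
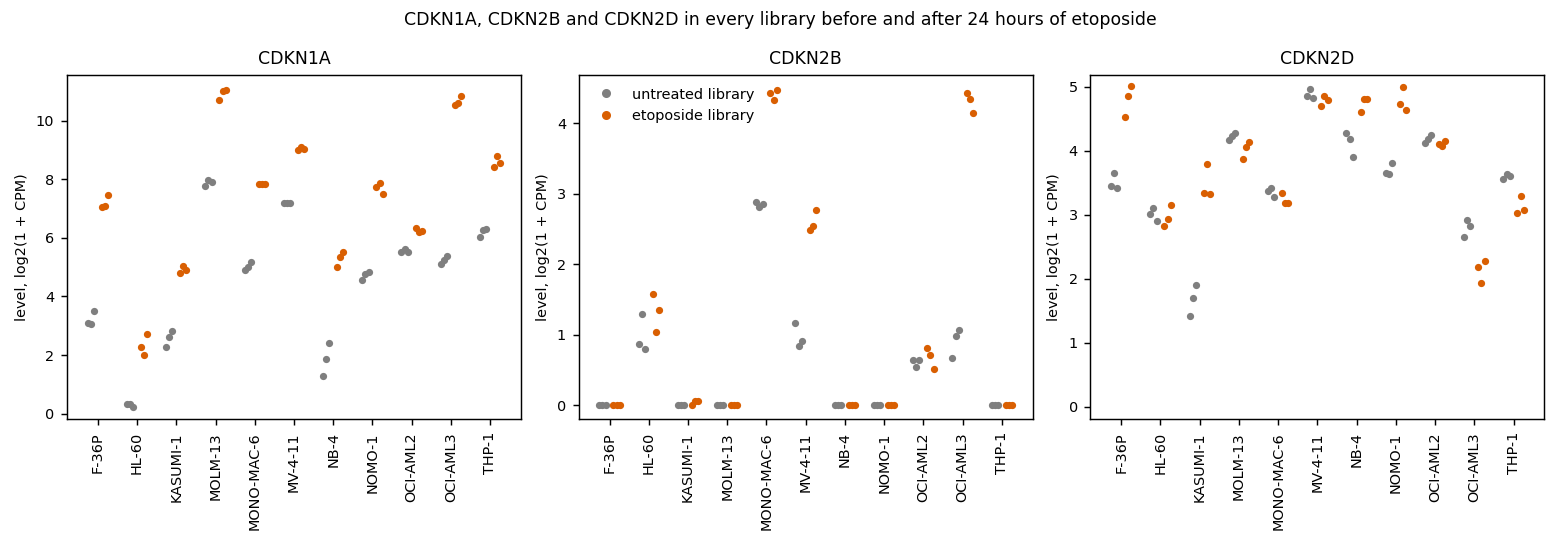
CDKN1A, CDKN2B and CDKN2D as log2(1 + CPM) in each of the 66 libraries, untreated in grey and etoposide in orange, normalized within the line. CDKN1A is higher with etoposide in every line, CDKN2B is higher in MONO-MAC-6, MV-4-11 and OCI-AML3 and stays near 0 where it had no untreated reads, and CDKN2D moves up in some lines and down in others.

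CDKN1B was called in 0 of 10 lines, while 65.1% of the genes tested in every line were called in none. Its changes were small and 9 of 10 were negative. THP-1 had the lowest, from 44.2, 54.3 and 43.1 CPM to 29.9, 30.5 and 31.1 CPM, a log2 fold change of -0.63 ± 0.13 (adjusted p = 0.00151) without overlap. NOMO-1, the line with the least CDKN1B at the base, had the only positive value, from 19.4, 23.5 and 18.3 CPM to 27.3, 29.3 and 24.5 CPM (0.41 ± 0.12, adjusted p = 0.0119). By FDR alone 7 lines passed, of which THP-1, NB-4, MOLM-13, KASUMI-1, MV-4-11 and MONO-MAC-6 were lower with etoposide. Of the 7, 4 passed under every alternative run. In 1 fit of 60 libraries MOLM-13 (adjusted p = 0.149) and MONO-MAC-6 (0.142) did not pass, with library size alone MONO-MAC-6 fell to -0.058 (0.382), and single libraries decided the pass in MOLM-13 (up to 0.0914, without untreated replicate 2), MONO-MAC-6 (0.0586, without etoposide replicate 2) and NOMO-1 (0.0639, without untreated replicate 3). The changes differed between lines (interaction, adjusted p = 8.59e-07), as did those of 74.5% of all genes. The mean over lines was -0.23 ± 0.29 (SD), which did not pass the exact sign-flip permutation test (adjusted p = 0.0757), although it did without replicate 1 of each group (adjusted p = 0.0499).

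CDKN1C had enough reads to be tested only in NOMO-1, and there only through its etoposide libraries. In that line 0.513, 0.297 and 0.593 CPM became 1.24, 2.04 and 1.41 CPM. The groups did not overlap, and the log2 fold change was 1.74 ± 0.33 (adjusted p = 0.000885; 8.34% of genes in NOMO-1 were called induced). Elsewhere the gene rested on few reads. Summed over 3 libraries it went from 8 to 35 reads in F-36P and from 6 to 47 in KASUMI-1, both without overlap in CPM. From 0 reads it reached 12 in MONO-MAC-6, at least 3.60-fold higher against a floor of 3 reads over the untreated group, and 28 in MV-4-11, at least 7.08-fold higher. With no filter on low counts these 4 lines were called as well, which makes 5 lines. With an untreated replicate or etoposide replicate 1 of every line left out, 2 to 3 lines were called.

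CDKN2A could be tested in 5 of the 10 lines and rose past both limits in OCI-AML3, the lowest of these at the base. Its libraries there had 1.87, 2.54 and 2.58 CPM untreated and 6.91, 7.15 and 8.28 CPM with etoposide, a log2 fold change of 1.67 ± 0.16 (adjusted p = 9.75e-05; 7.18% of genes in OCI-AML3 were called induced). Smaller changes passed the FDR limit in MV-4-11, from 61.7, 52.8 and 57.8 CPM to 73.5, 81.3 and 107 CPM (0.60 ± 0.10), and in HL-60, from 11.5, 13.7 and 13.7 CPM to 15.1, 15.9 and 21.5 CPM (0.44 ± 0.15, adjusted p = 0.0379). The pass in HL-60 was lost with any untreated replicate left out (adjusted p of 0.0629 to 0.137) and without etoposide replicate 3, where the value was 0.27 (adjusted p = 0.162). In MONO-MAC-6, where the gene was most abundant, 157, 201 and 189 CPM and 188, 200.2 and 194 CPM overlapped (0.09 ± 0.07, adjusted p = 0.325). The groups overlapped in KASUMI-1 as well. The changes differed between lines (interaction, adjusted p = 0.000309), as did those of 74.5% of all genes. That test took in all 10 lines, although only 5 had enough reads for a test of their own. OCI-AML3 exceeded MV-4-11 (adjusted p = 0.00451), and the other 3 of 4 neighbouring steps did not pass.

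CDKN2B rose in 3 of the 4 lines in which it could be tested. In OCI-AML3 the untreated libraries had 0.590, 0.976 and 1.10 CPM and the etoposide libraries 20.7, 19.4 and 16.8 CPM, a log2 fold change of 4.40 ± 0.19 (adjusted p = 1.67e-06). In MV-4-11 it rose from 1.26, 0.797 and 0.885 CPM to 4.64, 4.86 and 5.84 CPM (2.37 ± 0.21; 12.5% of genes were called induced there), and in MONO-MAC-6 from 6.37, 6.06 and 6.22 CPM to 20.5, 19.1 and 21.2 CPM (1.70 ± 0.09; 8.53%). None of these groups overlapped. HL-60 began at about the level of MV-4-11 but went only from 0.834, 1.44 and 0.736 CPM to 1.98, 1.05 and 1.56 CPM, with overlap and a log2 fold change of 0.59 ± 0.32 (adjusted p = 0.179).

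After etoposide OCI-AML3 and MONO-MAC-6 thus had like levels of CDKN2B, 16.8 to 20.8 and 18.9 to 20.9 CPM in their libraries on the shared scale, although every untreated library of MONO-MAC-6 lay above those of OCI-AML3. The changes differed between lines (interaction, adjusted p = 3.36e-08), as did those of 74.5% of all genes. That test took in all 10 lines, although only 4 had enough reads for a test of their own. OCI-AML3 exceeded MV-4-11 (adjusted p = 0.00011) and MONO-MAC-6 exceeded HL-60 (adjusted p = 0.0241), while the step from MV-4-11 to MONO-MAC-6 did not pass. Lines without untreated reads on CDKN2B remained at 0 to 2 reads over 3 etoposide libraries. In OCI-AML2 the change of CDKN2A (-0.03 ± 0.09) and of CDKN2B (0.21 ± 0.33) did not pass (adjusted p = 0.998 for both).

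CDKN2C was called in 0 of 10 lines, as were 65.1% of the genes tested in every line. Its lowest log2 fold change was -0.67 ± 0.12 in THP-1, where 319, 365 and 333 CPM became 190.2, 247 and 203 CPM without overlap (adjusted p = 0.000536). Its highest was 0.41 ± 0.10 in KASUMI-1, from 154, 157 and 170.3 CPM to 189, 239 and 210.0 CPM (adjusted p = 0.00492), also without overlap. By FDR alone MV-4-11 was higher as well and MOLM-13 lower, the latter not in 1 fit of 60 libraries (adjusted p = 0.0935) or without untreated replicate 2 (0.0696). The changes differed between lines (interaction, adjusted p = 1.15e-08), as did those of 74.5% of all genes. The mean of CDKN2C over lines, -0.06 ± 0.30 (SD), did not pass the exact sign-flip permutation test (adjusted p = 0.632).

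CDKN2D moved in both directions. It rose in KASUMI-1, the line with the least at the base, from 1.67, 2.26 and 2.74 CPM to 9.13, 12.8 and 8.96 CPM (log2 fold change 2.21 ± 0.21, adjusted p = 1.90e-05; 14.6% of genes were called induced there). It rose in F-36P from 9.96, 11.5 and 9.67 CPM to 22.1, 27.9 and 31.2 CPM (1.38 ± 0.16; 24.3% called induced) and in NOMO-1 from 11.6, 11.4 and 12.9 CPM to 25.6, 30.9 and 23.9 CPM (1.16 ± 0.12). Groups did not overlap in these lines, nor in NB-4, where the rise of 0.64 ± 0.12 stayed under the fold limit.

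In OCI-AML3, the line with the largest rises of CDKN1A and CDKN2B, CDKN2D instead went from 5.26, 6.54 and 6.12 CPM to 3.55, 2.81 and 3.83 CPM (-0.81 ± 0.15, adjusted p = 0.00349). THP-1 was also lower, by -0.52 ± 0.15 (adjusted p = 0.0151), both without overlap and both under the fold limit. The pass in THP-1 was lost with any untreated replicate or etoposide replicate 3 left out (adjusted p of 0.0522 to 0.0848). The changes of CDKN2D differed between lines (interaction, adjusted p = 5.00e-19), as did those of 74.5% of all genes. Of the pairs of lines 32 of 45 differed, against 24.6% of pairs over all genes. The other members had 29 of 45 for CDKN1A, 21 for CDKN2C, 18 for CDKN1B, 5 for CDKN2B, 4 for CDKN2A and 1 for CDKN1C. The last 3 had enough reads for a test within the line in only 4, 5 and 1 of the 10 lines. For CDKN2D, KASUMI-1 exceeded F-36P (adjusted p = 0.00193) and NB-4 exceeded HL-60 (adjusted p = 0.00767), and the other 7 of 9 neighbouring steps did not pass. The mean over lines of 0.36 ± 0.96 (SD) did not pass the exact sign-flip permutation test (adjusted p = 0.376), and the median was of the opposite sign (-0.065), with 6 of 10 lines negative.

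By line, 3 members were induced in NOMO-1 (CDKN1A, CDKN1C and CDKN2D) and in OCI-AML3 (CDKN1A, CDKN2A and CDKN2B). CDKN1A and CDKN2D rose in F-36P and KASUMI-1, and CDKN1A and CDKN2B in MONO-MAC-6 and MV-4-11. CDKN1A was the 1 member induced in HL-60 (5.34% of genes called induced), MOLM-13 (8.59%), NB-4 (13.2%) and THP-1 (6.38%). Among the 4 members tested in all lines, Pearson's r of the log2 fold changes over 10 lines lay between -0.186 and 0.429. Basal levels of the 5 members compared over 11 lines had r between -0.209 and 0.547, the highest for CDKN1A with CDKN2D. These values describe few lines that share no library but do share the filter and scaling.

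The genes with the most similar patterns were found among 14073 genes for the change and 13667 for the basal level. For the change of CDKN1A they were ELMO3 (r = 0.885), TMEM106A (0.882) and TIGAR (0.877), the last a regulator of sugar metabolism. For CDKN1B they were ZNF567 (0.90), NIPSNAP3A (0.872) and COX7B (0.856), for CDKN2C CENPT (0.928), PTGDR2 (0.919) and SDS (0.917), and for CDKN2D HSD17B11 (0.976), FAM200C (0.964) and CFAP36 (0.951). At the base, the gene most like CDKN2A was its antisense neighbour CDKN2B-AS1 (0.918), followed by MIR762HG (0.871) and ZNF81 (0.862). CDKN2A and CDKN2B-AS1 both had 0 untreated reads in F-36P, NB-4, NOMO-1 and THP-1, which enter that r. KASUMI-1 had 287 reads on CDKN2A and 0 on CDKN2B-AS1. LSM1 (0.949), MTMR9 (0.947) and TRIM35 (0.945) were nearest to CDKN1A, NDUFB4 (0.862), IDI1 (0.850) and RUFY1 (0.848) to CDKN2C, and LST1 (0.910), TRIAP1 (0.888) and RPF1 (0.878) to CDKN2D. For CDKN1B they were EP400P1 (0.904) and 2 unnamed genes (0.926 and 0.916). All these r were picked as the highest among that many genes, over 10 lines for the change and 11 for the basal level. Such picking by itself makes r high, and whether these genes share control with the members was not tested.

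Of 13 CDKs and cyclins, 11 of 125 tested pairs were induced and 6 repressed (8.80% and 4.80%, near the 11.1% and 3.96% over all genes). CCNE2, the cyclin E2 that activates CDK2, was induced in 6 lines, CCNA1 in 2, and CDK6, a target of the INK4 proteins, and the cyclin genes CCNA2 and CCNB1 were repressed in 2 each. Of 15 pocket protein and E2F genes, which control entry into DNA synthesis, 18 of 147 pairs were induced and 8 repressed (12.2% and 5.44%). E2F2 was induced in 7 of 9 lines tested and E2F7, a repressor of the same family, in 6 of 9, while E2F5 was repressed in 5 of 9.

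Of 8 genes for the degradation of CIP/KIP proteins, 1 of 80 pairs was induced and 3 were repressed (1.25% and 3.75%, against 11.1% and 3.96% over all genes). DTL, which directs p21 to degradation, was induced in 1 line and repressed in 1, and SKP2 and CUL4A, parts of ubiquitin ligases, were repressed in 1 line each. Of 12 transcription regulators of the family, 11 of 118 pairs were induced and 7 repressed (9.32% and 5.93%). MYC, which represses CDKN1A and CDKN2B, was repressed in 6 of 10 lines and induced in 0, with log2 fold changes from -3.75 to -0.56. KLF4 and KLF6 were induced in 4 lines each and CBX7 in 3. Whether any of these changes bears on the members was not tested.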

How the data were processed

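RNA of 66 libraries from 11 AML cell lines was analysed. Per the labels and the study's methods, the library kit was stranded and selected mRNA, and the authors checked reads with FastQC 0.11.5, mapped them with STAR 2.5.3a to GRCh38.p7 and deposited counts of reads per gene without normalization; the submitters' notes also name edgeR 3.20.1. Of 707 genes lying wholly inside an opposite-strand exon, 463 had reads, so the deposited counts were taken as counted by strand. These exons came from gencode release 44, whereas the authors counted on an earlier release, and a single read in any library sufficed. The check thus cannot settle whether the counts were kept by strand. The members and the gene lists were chosen with earlier results of these data known.

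Here, 57992 gene identifiers were used, after leaving out 45 copies on the Y chromosome with 0 reads, and 56948 were named by gencode release 44. Each line was fitted in R 4.3.3 with edgeR 4.0.16 (filterByExpr with a minimum count of 10 and total of 15, TMM, quasi-likelihood test, Benjamini-Hochberg adjustment over all genes tested). A call needs an FDR under 0.05 and more than a 2-fold change. The interaction used 60 libraries, basal levels used the 33 untreated libraries, and the mean over 10 lines used an exact sign-flip permutation test. CPM was TMM-normalized within a line for changes and over the 33 or 60 libraries for levels between lines. Standard errors are the log2 fold change divided by the square root of F.

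Named genes were the 7 members, genes with reads within 2 Mb of CDKN2A and the 3 genes most correlated with each member (mean of at least 1 CPM). Up to 3 genes of each list called in the most lines were named as well, with ties, and CBX7 was added. Same-numbered libraries deviated together (r above 0.1 in all 3 pairs) in MOLM-13, NB-4 and OCI-AML2, where the lowest r was 0.125, and not in the other 8 lines. Replicates differed by more than counting noise in every group (lowest chi-square per degree of freedom 2.05). The fits were tested on simulated data. Alternatives were the exact test of edgeR, DESeq2 1.42.0, RLE, library size alone, other filters, 1 fit of 60 libraries, a replicate block, no fold minimum and each replicate left out; the omission of F-36P from the counts of calls was added after seeing the data. Python 3.11.15, numpy 2.4.6, pandas 2.3.3, scipy 1.17.1 and matplotlib 3.10.9 were used for the rest. Protein sequences and reads were not analysed here, and 2 genes and 1 list of the original design are not reported here.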

Additional observations from a re-analysis of the deposited data

Results flagged for a closer look

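The etoposide change differed between lines, by the interaction of line and treatment, for CDKN1A (adjusted p = 2.91e-19), CDKN1B (8.59e-07), CDKN2A (0.000309), CDKN2B (3.36e-08), CDKN2C (1.15e-08) and CDKN2D (5.00e-19), from the edgeR quasi-likelihood test, while 74.5% of all genes also differed. CDKN1C did not pass this test (adjusted p = 0.126). The test took in all 10 lines, although CDKN2A had enough reads for a test within the line in only 5 of them, CDKN2B in 4 and CDKN1C in 1.

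The log2 fold change of CDKN1B in NOMO-1 (0.41) stood apart as the highest of the 10 lines by Dixon's test, which flags about 1 in 20 groups by chance.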

How the results depend on the processing

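CDKN1A, CDKN2B and CDKN2D kept their counts of 10, 3 and 3 induced lines within 1.5 times under every alternative run. CDKN1A in HL-60, CDKN1C in NOMO-1, CDKN2A in OCI-AML3 and CDKN2B in MV-4-11 were not tested when a mean of at least 5 CPM was required, which left 0 lines for CDKN1C and CDKN2A. Induced lines of CDKN1C numbered 5 without a filter and in 1 fit of 60 libraries, which test rarer genes, and 2 to 3 with an untreated replicate or etoposide replicate 1 left out. Its interaction then had an adjusted p of 0.0384 without a filter. Low reads thus limit CDKN1C most.

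With no fold change minimum, 10 member-line pairs were repressed: CDKN1B in 6 lines, CDKN2C in 2 and CDKN2D in 2. CDKN1B was then induced in 1, CDKN2A in 3 and CDKN2C in 2. Of the lists, CDKs and cyclins had 38 induced and 42 repressed pairs, pocket proteins and E2F 46 and 43, degradation genes 11 and 40, and regulators 36 and 35. With at least 5 CPM, induced pairs were 11 for pocket proteins and E2F and 7 for regulators. Repressed degradation pairs were 7 without a filter and up to 5 without untreated replicate 2 or 3, from 3.

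Over the 10 lines, the median in place of the mean gave CDKN1A 3.04 with an adjusted p of 0.0696 by sign flip, and CDKN2D -0.065, opposite in sign to its mean. With library size alone the mean of CDKN2C was 0.047. With a replicate left out CDKN1B averaged -0.26 to -0.19, and without replicate 1 its adjusted p was 0.0499. The causes were not tested.

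Of 16 pairs of member and line that passed the FDR limit but not the fold limit, 10 passed under every alternative that tested them. Small log2 fold changes that were not called turned sign. These were CDKN1B in F-36P (0.045 with at least 5 CPM, 0.13 with library size alone), CDKN2C in HL-60 (0.0033, 0.090 and, in 1 fit of 60 libraries, 0.018) and, with library size alone, CDKN2C in MONO-MAC-6 (0.071), CDKN2D in HL-60 (0.067) and CDKN2D in MV-4-11 (0.033). With each replicate left out in turn, CDKN1B in OCI-AML2 ran from -0.028 to 0.053, CDKN2A from -0.058 to 0.27 in KASUMI-1, from -0.00615 to 0.15 in MONO-MAC-6 and from -0.13 to 0.062 in OCI-AML2, CDKN2C in HL-60 from -0.13 to 0.060 and CDKN2D in HL-60 from -0.13 to 0.049.

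The replicate number as a block changed no call of a member in any line. With the block CDKN1A had log2 fold changes of 1.86 in MV-4-11 to 5.46 in OCI-AML3, and only CDKN2A in MONO-MAC-6 moved across the FDR limit (adjusted p = 0.0218, log2 fold change 0.09). In the labels the replicates share only a number, so the design itself gives no pairing for the block. The limit on r, set on these same data, left out 8 lines, among them MONO-MAC-6 (lowest r 0.081) and MV-4-11 (0.069). Leaving F-36P out left 16 induced pairs of members, 9 lines for CDKN1A and 2 for CDKN2D.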
